A study of Mus musculus with 15 samples.

Results

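Prostaglandin synthesis and phospholipase genes are described here as 9 genes of an Agilent mouse expression array: Pla2g4a, Pla2g10, Ptgs1, Ptgs2, Ptges, Ptgis, Ptgds, Tbxas1 and Hpgd. They were chosen by the gene name given to a probe, and 18 of the 56605 probes, or 9 of the 37008 gene names, carry one of these names. The study measured total RNA of 15 samples in 5 groups of 3, 1 array per sample. Activated pancreatic stellate cells (PSC), the matrix-producing mesenchymal cells of the pancreas, came from heterozygous mice (PSC HT) or wild-type mice (PSC WT) and were kept in culture for 2 weeks. Pancreatic cancer cells, called neoplastic cells in the labels, were kept for 24 h in medium conditioned by HT PSC (HT medium), in medium conditioned by WT PSC (WT medium) or in control medium. Neither the heterozygous locus nor the cancer cell line nor the age of the mice is given in the labels used here.

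Prostaglandins are lipid mediators made from arachidonic acid. A phospholipase A2 frees this fatty acid from membrane phospholipids, a cyclooxygenase (Ptgs1 or Ptgs2) turns it into prostaglandin H2, and a terminal synthase then makes prostaglandin E2, prostacyclin, prostaglandin D2 or thromboxane A2. The products leave the cell, act on G protein-coupled receptors of the same or neighbouring cells, and are taken up and broken down. In the pancreas and its tumours the inducible cyclooxygenase and prostaglandin E2 are known from both the epithelium and the stroma.

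Levels are given as log2 of the processed signal minus the array's own 75th percentile, so that a level of 0 is the signal of the 75th percentile spot. Levels of different probes cannot be compared with each other, only one probe across samples. A difference is the mean of the first group minus that of the second ± SE, with n = 3 arrays per group, and is on the log2 scale. It passed the test when limma's p, adjusted by Benjamini-Hochberg over all genes tested, was under 0.05. A gene was tested when its brightest probe stood well above background, as the scanner software calls it, on the 3 arrays of at least 1 of the groups fitted. Whether replicates are separate animals or separate cultures is not stated, so a p-value covers only the spread seen among these arrays, and that spread may be technical.

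Each array had 54.26% to 63.78% of its spots well above background and 0 saturated spots. All 12 stellate and fibroblast markers examined were higher in PSC WT than in the control cancer cells, and all 9 tested epithelial markers were lower. The PSC groups also differed in markers of other cells. Of 14 macrophage markers tested 13 were higher in PSC HT, with a median difference of 2.79, while 6 of 9 mesothelial and 6 of 7 endothelial markers tested were lower, with medians of -1.94 and -1.40. One array stood apart: on PSC HT 3 the epithelial cadherin Cdh1 was at -2.45, while on the other 5 PSC arrays it was not well above background (-8.22 to -7.61). Results for PSC HT are therefore given also without that array where it matters.

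The 9 genes, and the lists of other pathway genes further below, were chosen with earlier results of these data known. Counts are therefore given beside the shares of all genes as a description only. The plainest pattern lay between the cell types. All 9 genes passed the test between PSC WT and control cancer cells, where 71.4% of all 21928 genes tested did. Both cyclooxygenases, prostacyclin synthase (Ptgis), thromboxane synthase (Tbxas1) and cytosolic phospholipase A2 (Pla2g4a) were higher in PSC WT. The prostaglandin D2 synthase Ptgds, the secreted phospholipase Pla2g10, the prostaglandin E2 synthase Ptges (by its brightest probe) and the degrading enzyme Hpgd were lower. Ptgis entered this test only through the PSC WT arrays, and Pla2g10 and Hpgd only through the control arrays. The directions of those genes were thus largely set by the filter. In cancer cells Ptgs2 and Pla2g4a rose, and Ptgs1 and Pla2g10 fell, in either PSC medium. These were 4 of 8 tested genes in HT medium, where 5.47% of all 19687 genes tested passed, and 4 of 8 in WT medium, where 5.95% did. Both of these comparisons use the same 3 control arrays. Pla2g10 was tested only because the control arrays stood well above background, so its place among the genes that fell was largely set by that filter. Of these calls Ptgs2 held in both media when dim genes were kept in the test and when all probes of a gene were averaged. Only 1 probe carries the name Ptgs2, so averaging was no test of its call. Ptgs1, Pla2g4a and Pla2g10 each have a dimmer probe that enters the average. Under each of these 2 settings Ptgs1 and Pla2g4a did not pass in either medium, and Pla2g10 passed only in WT medium with dim genes kept. With all 15 arrays in 1 fit Pla2g10 did not pass in either medium. Between PSC HT and PSC WT 1 of 7 tested genes passed by its brightest probe, Ptgs1, which fell. Of all 20886 genes tested 7.73% passed there. Between cancer cells in HT medium and in WT medium 0 of 8 passed with limma, as did 0 of all 19687 genes tested, a share of 0%. At an unadjusted p under 0.05 the counts there were 0 of the 8 and 960 of all genes. The arrays of the groups did not overlap for 9 of 9 genes between PSC WT and control cancer cells (75.5% of all genes tested), 4 of 8 in HT medium (24.4%), 5 of 8 in WT medium (25.2%), 4 of 7 between the PSC genotypes (29.1%) and 0 of 8 between the PSC media (11.5%).

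**Figure D1:**
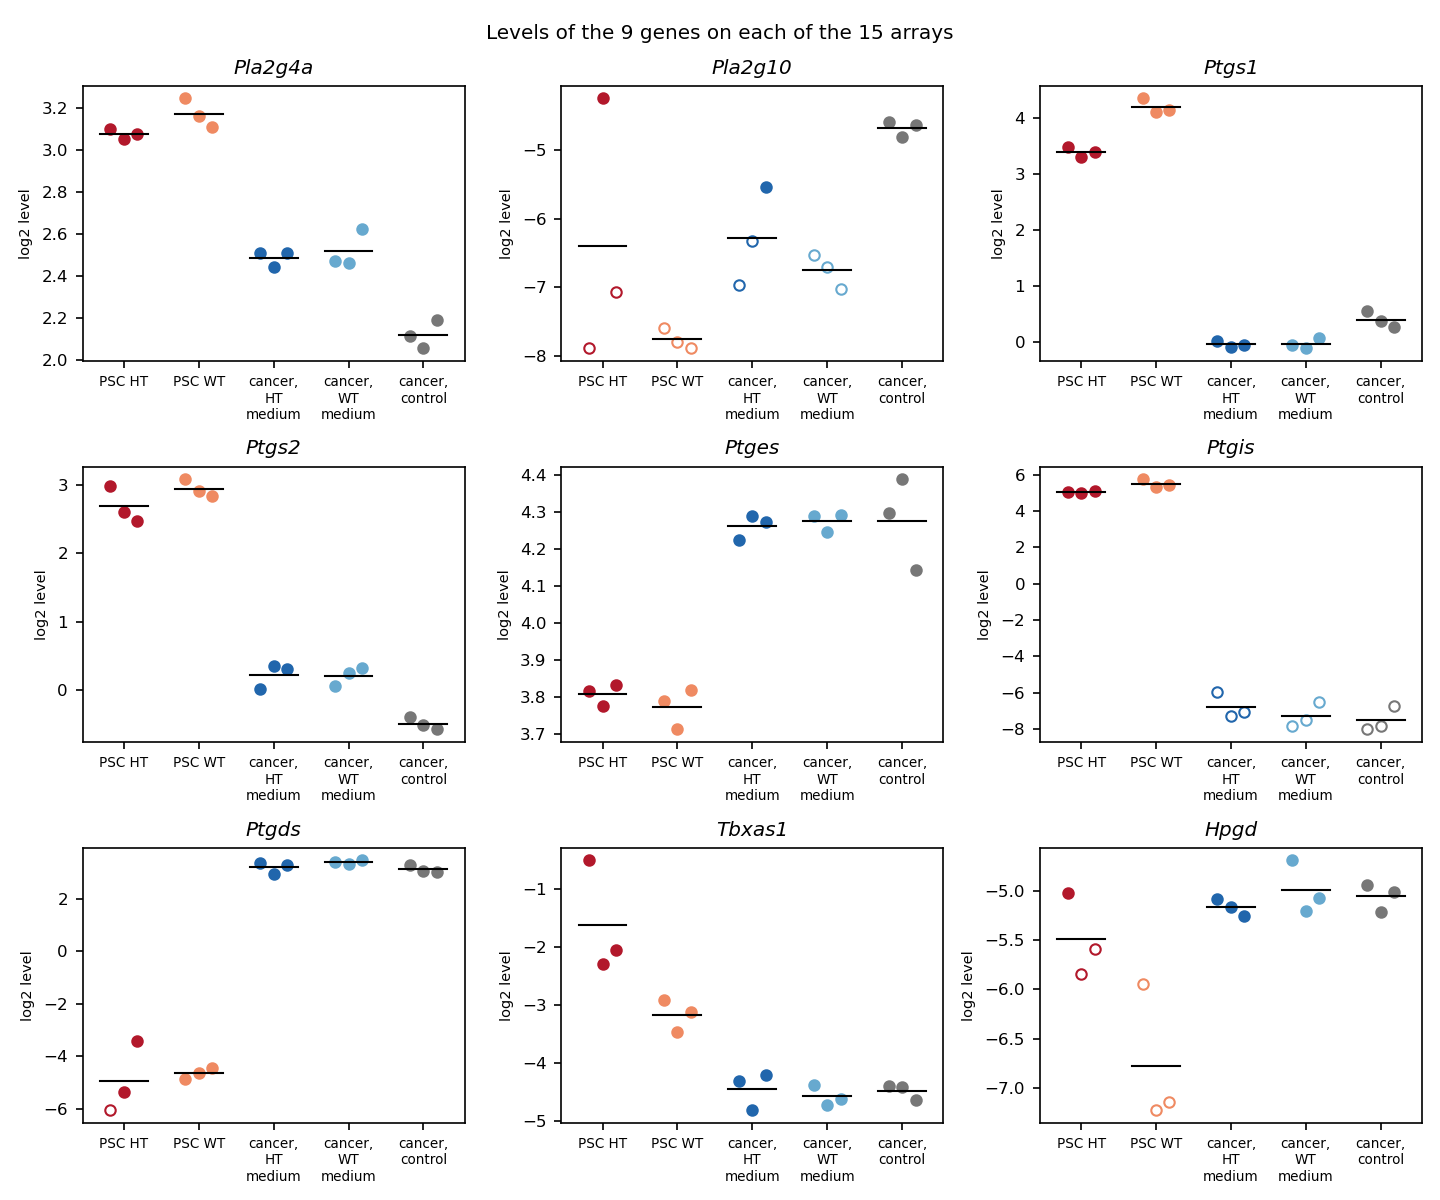
Log2 level of the brightest probe of each gene (y axis, relative to the array's 75th percentile, a different range in each panel) on the 3 arrays of each of the 5 groups (x axis). Filled points are well above background, open points are not, and bars are group means. Ptgs1, Ptgs2, Ptgis and Pla2g4a were highest in the PSC groups, and Ptgds and Ptges in the cancer cells.

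Pla2g4a encodes cytosolic phospholipase A2 alpha, the calcium-regulated enzyme that releases arachidonic acid inside the cell. Its level was 3.10, 3.05 and 3.08 in PSC HT and 3.24, 3.16 and 3.11 in PSC WT. In cancer cells it was 2.51, 2.44 and 2.51 in HT medium, 2.47, 2.46 and 2.62 in WT medium, and 2.11, 2.05 and 2.19 in control medium. The groups in PSC medium overlapped each other and both lay wholly above the controls. The difference from control medium was 0.37 ± 0.07 in HT medium (adjusted p = 0.0202) and 0.40 ± 0.07 in WT medium (adjusted p = 0.012), a ratio of 1.29 and 1.32. The call in HT medium did not hold without HT medium 1 or 3 or without control 1 or 2 (adjusted p of 0.0623 to 0.0805), while that in WT medium held when any 1 array was left out. In PSC the arrays of the 2 genotypes did not overlap, but the difference of -0.10 ± 0.07 did not pass (adjusted p = 0.503). PSC WT exceeded the control cancer cells by 1.05 ± 0.09 (adjusted p = 4.5e-05). In bulk RNA, fewer cells of a type and less RNA per cell cannot be told apart, here and in the results that follow. A second, dim Pla2g4a probe 89233 bases away, assigned to another transcript, did not pass in either medium. Its differences were -0.13 ± 0.20 in HT medium and 0.14 ± 0.20 in WT medium.

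Pla2g10 encodes group X secreted phospholipase A2, which acts on phosphatidylcholine of the outer membrane leaflet and is made mainly by epithelia. In cancer cells in HT medium the level was -6.97, -6.33 and -5.54, of which only the last was well above background. In WT medium it was -6.52, -6.71 and -7.02, none of them well above background. All 3 arrays in control medium were well above background, at -4.59, -4.81 and -4.63. All 6 arrays in PSC medium thus lay below all 3 controls. The gene was tested only through the control arrays, so its direction was largely set by the filter. The difference was -1.60 ± 0.31 in HT medium (adjusted p = 0.0227), a size that rests partly on readings not well above background. In WT medium it was -2.07 ± 0.31 (adjusted p = 0.0066), which, bounded by the arrays' detection floor, means that the gene was at least 1.82-fold lower. The gene was dim on every array, and with normexp background correction, which compresses dim signals, the differences were -0.49 and -0.54. The call in HT medium did not hold without HT medium 2 or any 1 control array (adjusted p of 0.0585 to 0.0756). In PSC 5 of 6 arrays were not well above background. The exception was PSC HT 2, at -4.25. PSC WT was at least 2.05-fold lower than the control cancer cells (adjusted p = 8.6e-07). A second Pla2g10 probe 9292 bases away, assigned to another transcript, was well above background on 1 control array only. It was not tested in any comparison, so the falls rest on 1 probe.

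Ptgs1 encodes cyclooxygenase 1, the isoform that many cells make at a steady level. It was the only one of the genes that passed between the PSC genotypes by its brightest probe. Other probes of Ptges and Ptgis also passed there, as given below. Its level was 3.47, 3.29 and 3.40 in PSC HT and 4.34, 4.10 and 4.13 in PSC WT, with no overlap. The difference was -0.80 ± 0.10 (adjusted p = 0.0066), so that the signal in PSC HT was 1.75-fold lower. It was -0.81 without PSC HT 3 (adjusted p = 0.0256), and with dim genes kept in the test its adjusted p was 0.0501. A second Ptgs1 probe 10715 bases away, assigned to another transcript, fell further, by 1.46 ± 0.13 (adjusted p = 0.0022). Both slides on which the arrays lay showed the fall, with -0.91 on slide 1 and -0.82 on slide 2, although on 1 slide alone, with 3 arrays, it did not pass.

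In cancer cells the Ptgs1 level was 0.01, -0.10 and -0.05 in HT medium, -0.07, -0.12 and 0.07 in WT medium, and 0.54, 0.37 and 0.26 in control medium. Every array in PSC medium lay below every control array, and the arrays of the 2 PSC media overlapped. The difference was -0.44 ± 0.09 in HT medium (adjusted p = 0.0252) and -0.43 ± 0.09 in WT medium (adjusted p = 0.0241). These calls were narrow: the first did not hold without any 1 of the HT medium arrays or without control 1 or 2, and the second not without WT medium 1 or 2 or control 1 or 2, with adjusted p of 0.061 to 0.0897. PSC WT exceeded the control cancer cells by 3.80 ± 0.12 (adjusted p = 3.4e-07), a ratio of 13.9.

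Ptgs2 encodes cyclooxygenase 2, the isoform induced by cytokines, growth factors and stress. Cancer cells had levels of 0.01, 0.35 and 0.30 in HT medium and 0.05, 0.24 and 0.32 in WT medium, against -0.39, -0.51 and -0.57 in control medium. Each of the 6 arrays in PSC medium was above each control. The difference was 0.71 ± 0.11 in HT medium (adjusted p = 0.0096) and 0.70 ± 0.11 in WT medium (adjusted p = 0.0085), ratios of 1.64 and 1.62. Both calls held when any 1 array was left out. On slide 1 alone the differences were 0.64 and 0.54, and on slide 2 alone 0.86 and 0.79. With so few arrays neither call passed on 1 slide alone. Between the media, HT minus WT, Ptgs2 differed by 0.01 ± 0.11 (adjusted p = 1).

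In PSC the Ptgs2 level was 2.99, 2.60 and 2.47 in PSC HT and 3.08, 2.91 and 2.84 in PSC WT. The groups overlapped, and the difference of -0.26 ± 0.15 did not pass (adjusted p = 0.388). PSC WT exceeded the control cancer cells by 3.44 ± 0.10 (adjusted p = 3.1e-07), a ratio of 10.8. Ptgs1 and Ptgs2 thus shared the order of the cell types, while in PSC medium Ptgs2 rose and Ptgs1 fell.

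The start regions of the cyclooxygenase genes are shown because these genes moved in opposite directions in PSC medium. Each is 300 bases, 250 before to 50 after the gene's start, taken from RefSeq on build GRCm38.p6, both on the plus strand: chr1:150099781-150100080 for Ptgs2 and chr2:36230176-36230475 for Ptgs1. Capitals mark CGTCA, the core of the cyclic AMP response element, CACGTG, the E-box, and TTGCGCAA, a C/EBP-type palindrome, searched on both strands.
Ptgs2: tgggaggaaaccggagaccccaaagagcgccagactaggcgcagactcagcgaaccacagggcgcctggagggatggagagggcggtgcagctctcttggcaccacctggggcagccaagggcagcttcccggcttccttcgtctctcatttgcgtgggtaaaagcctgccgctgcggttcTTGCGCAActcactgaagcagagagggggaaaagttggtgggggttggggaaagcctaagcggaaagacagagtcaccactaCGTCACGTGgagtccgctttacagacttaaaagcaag
Ptgs1: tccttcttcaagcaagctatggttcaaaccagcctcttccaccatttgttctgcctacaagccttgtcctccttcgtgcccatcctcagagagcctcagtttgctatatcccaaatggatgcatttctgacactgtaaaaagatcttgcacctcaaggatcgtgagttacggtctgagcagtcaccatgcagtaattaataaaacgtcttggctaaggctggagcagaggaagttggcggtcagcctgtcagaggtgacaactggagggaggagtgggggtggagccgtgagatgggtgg
The Ptgs2 window held all 3, and the Ptgs1 window held none of them. In the Ptgs2 window CGTCA and CACGTG overlapped and began 13 and 16 bases after the gene's start. Of all 32851 such windows 20.8% held CGTCA, 7.15% CACGTG and 0.183% TTGCGCAA. Of the 8 genes with a window, CGTCA was also in that of Pla2g10, and the other 2 motifs in no other. TATAAA, also searched, was in neither cyclooxygenase window. The part of these motifs in the opposite changes was not tested.

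**Figure D2:**
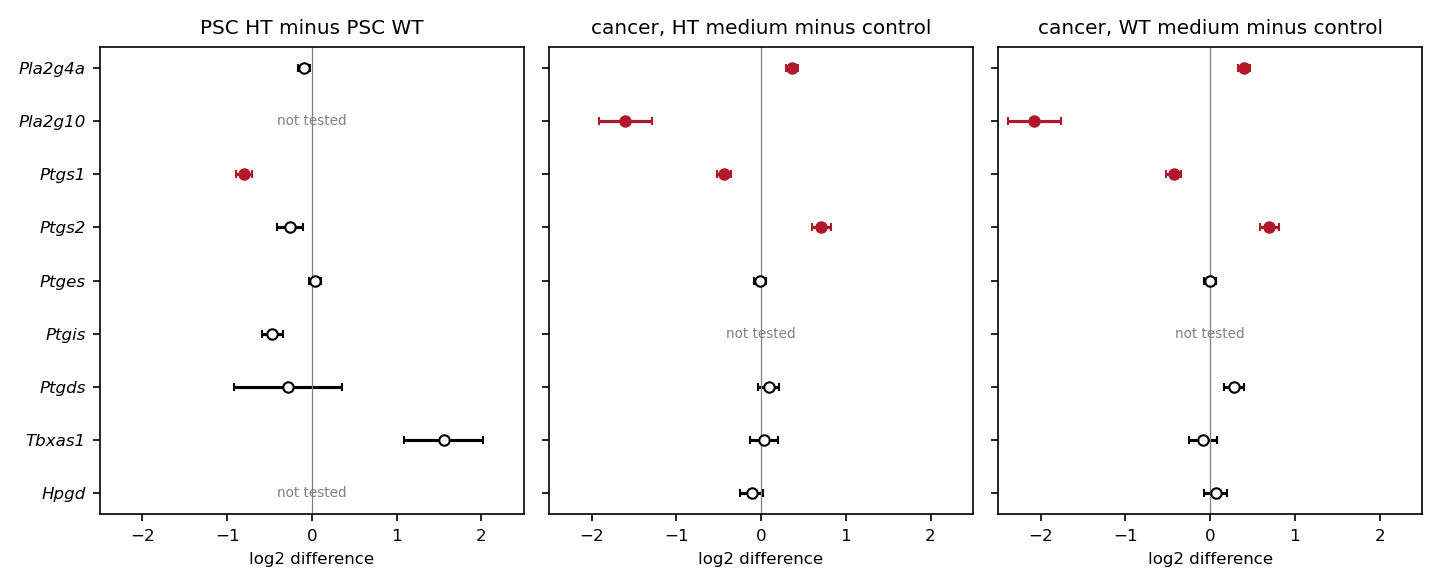
Log2 difference (x axis) of each gene (y axis) in 3 comparisons, with bars of 1 SE and n = 3 arrays per group. Filled red points passed the test (adjusted p under 0.05), open points did not, and genes whose brightest probe missed the background criterion are marked as not tested. Ptgs1 passed in all 3 comparisons, with -0.80 in PSC HT, -0.44 in HT medium and -0.43 in WT medium.

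Ptges encodes microsomal prostaglandin E synthase 1, the inducible enzyme that makes prostaglandin E2 from prostaglandin H2. Its brightest probe was at 3.82, 3.78 and 3.83 in PSC HT and 3.79, 3.71 and 3.82 in PSC WT. In cancer cells it was at 4.23, 4.29 and 4.27 in HT medium, 4.29, 4.25 and 4.29 in WT medium, and 4.30, 4.39 and 4.14 in control medium. On this probe all 9 cancer arrays lay above all 6 PSC arrays, and the groups within each cell type overlapped. PSC WT differed from the control cancer cells by -0.50 ± 0.10 (adjusted p = 0.0031), a call that did not hold on slide 1 alone (-0.43, adjusted p = 0.125). No difference within a cell type passed on this probe, with -0.01 ± 0.07 in HT medium, 0.00 ± 0.07 in WT medium and 0.03 ± 0.07 between PSC HT and PSC WT (adjusted p = 0.837).

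The other Ptges probes gave other values in both PSC comparisons. Probe 2 was at 0.91, 0.86 and 0.91 in PSC HT and 0.43, 0.31 and 0.35 in PSC WT. Probe 3 was at -0.64, -0.65 and -0.66 in PSC HT and -1.20, -1.26 and -1.01 in PSC WT. On both probes the genotypes were apart, and PSC HT was higher by 0.53 ± 0.07 (adjusted p = 0.0088) and 0.51 ± 0.09 (adjusted p = 0.0201). Against the control cancer cells PSC WT differed by -0.23 ± 0.08 on probe 2 (adjusted p = 0.0425) and by -0.34 ± 0.16 on probe 3, which did not pass (adjusted p = 0.093). On probe 2 the controls were at 0.64, 0.58 and 0.55, so that all PSC HT arrays lay above them and all PSC WT arrays below. Neither probe passed between cancer cells in either PSC medium and those in control medium. On the mouse build mm9 that the files use, the gene runs on the minus strand, and probe 1 (chr2:30744995-30745054) lies 2843 bases downstream of probe 2 (chr2:30747838-30747897) and 3219 bases downstream of probe 3 (chr2:30748214-30748273). The sequences are shown because these probes of 1 gene disagreed. Their place in the exons was not assigned. Capitals mark ATTAAA, a form of the polyadenylation signal, which 3.86% of all probes hold, and 30 bases of probe 1 are given.
Ptges probe 1, 30 bases: aagtcagccccaATTAAAtgctttccttta
Ptges probe 3: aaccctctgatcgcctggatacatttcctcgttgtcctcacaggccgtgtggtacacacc
Probe 1 has a stop codon in each of the 3 forward reading frames, while probe 3 is open in 2 of them.

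Ptgis encodes prostacyclin synthase, a cytochrome P450 family enzyme of vascular and mesenchymal cells. Its brightest probe was at 5.04, 4.98 and 5.11 in PSC HT and 5.75, 5.34 and 5.44 in PSC WT. The genotypes did not overlap, and the difference of -0.47 ± 0.12 did not pass (adjusted p = 0.0712). It did pass with the slide as a block, at -0.54 (adjusted p = 0.036). The other probes passed, with -0.57 ± 0.07 on probe 2 (adjusted p = 0.0085) and -0.82 ± 0.15 on probe 3 (adjusted p = 0.0266). All 3 probes were thus lower on each PSC HT array than on any PSC WT array. Probes 1 and 2 are assigned to the same transcript and probe 3 to another, so probe 3 may not report the same RNA.

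In cancer cells probes 1 and 2 of Ptgis were not well above background on any of the 9 arrays. By probe 1 the gene was at least 2138-fold higher in PSC WT than in the control cancer cells (adjusted p = 1.8e-07), the largest ratio among the 9 genes. Probe 3, the only one of the 3 probes well above background in both cell types, gave a far smaller difference. It averaged -2.01 in PSC WT and -4.63 in control cancer cells, a difference of 2.62 ± 0.19 (adjusted p = 2.2e-05). In the PSC media its mean was -4.40 in HT medium and -4.51 in WT medium. It lies 11379 bases downstream of probe 1 on the minus strand of mm9 chromosome 2. The stretch of probe 1 (chr2:167028696-167028755) that holds the common polyadenylation signal AATAAA, found in 9.77% of all probes, and the whole of probe 2 (chr2:167032305-167032364) are given because no cancer array stood well above background on these 2 probes.
Ptgis probe 1, 30 bases: gcaggaaaagctAATAAAagctctgtatct
Ptgis probe 2: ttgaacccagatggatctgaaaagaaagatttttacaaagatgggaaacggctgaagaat

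**Figure D3:**
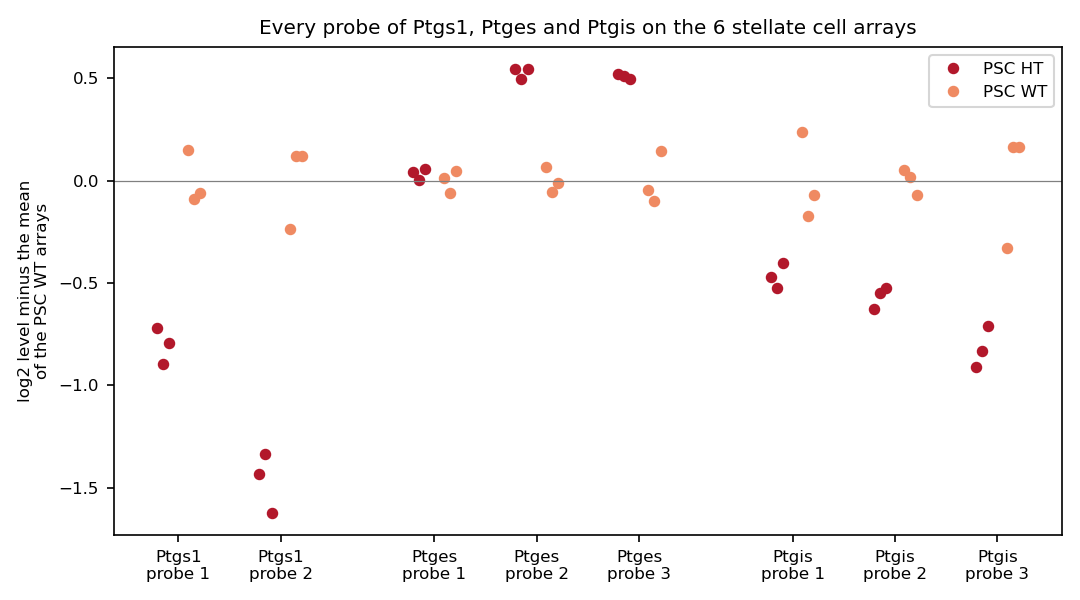
Log2 level of each probe of Ptgs1, Ptges and Ptgis on the 6 PSC arrays (points), as the difference from the mean of the 3 PSC WT arrays of that probe (y axis). All Ptgs1 and Ptgis probes lay lower on the PSC HT arrays, whereas Ptges probes 2 and 3 were higher there and Ptges probe 1 differed by 0.03.

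Ptgs1 and Ptgis were lower in PSC HT, where mesothelial and endothelial markers were lower too. The summed signal of the 9 mesothelial markers, in multiples of the array's 75th percentile, was 14.2, 18.6 and 24.1 in PSC HT and 44.9, 53.9 and 52.3 in PSC WT. That of the endothelial markers was 2.59, 2.30 and 2.73 in PSC HT and 4.61, 4.82 and 4.57 in PSC WT. The groups did not overlap on either list. Such a sum is not specific to these cells. On the control cancer arrays it was 277 to 328 for mesothelial and 14.2 to 15.8 for endothelial markers. The mesothelial marker Upk3b fell by 2.70 ± 0.19 and the endothelial cadherin Cdh5 fell by 2.86 ± 0.20 (adjusted p = 0.0011 and 0.0012). Their part in the Ptgs1 and Ptgis differences was not tested.

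Tbxas1 encodes thromboxane A synthase, an enzyme known mainly from platelets and macrophages. Its level was -0.50, -2.29 and -2.05 in PSC HT and -2.92, -3.47 and -3.13 in PSC WT. Every PSC HT array was above every PSC WT array, with PSC HT 1 far above the rest, and the difference of 1.55 ± 0.47 did not pass (adjusted p = 0.11). Without PSC HT 1 it was 1.00 and passed (adjusted p = 0.0419). Macrophage markers followed the same order of arrays at the top. Their summed signal was 188, 73.8 and 74.3 in PSC HT and 30.02, 17.1 and 15.8 in PSC WT, with PSC HT 1 highest. The lysozyme gene Lyz2 and Adgre1, which encodes the surface protein F4/80, were higher in PSC HT by 2.42 ± 0.43 and 2.87 ± 0.55 (adjusted p = 0.0243 and 0.029). The part of these markers in the Tbxas1 levels was not tested. In cancer cells Tbxas1 was at -4.82 to -4.21 in HT medium, -4.72 to -4.38 in WT medium and -4.65 to -4.40 in control medium, all overlapping. PSC WT exceeded the control cancer cells by 1.32 ± 0.16 (adjusted p = 0.00032). The other 2 Tbxas1 probes were well above background on at most 1 PSC array and on 0 of the cancer arrays.

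**Figure D4:**
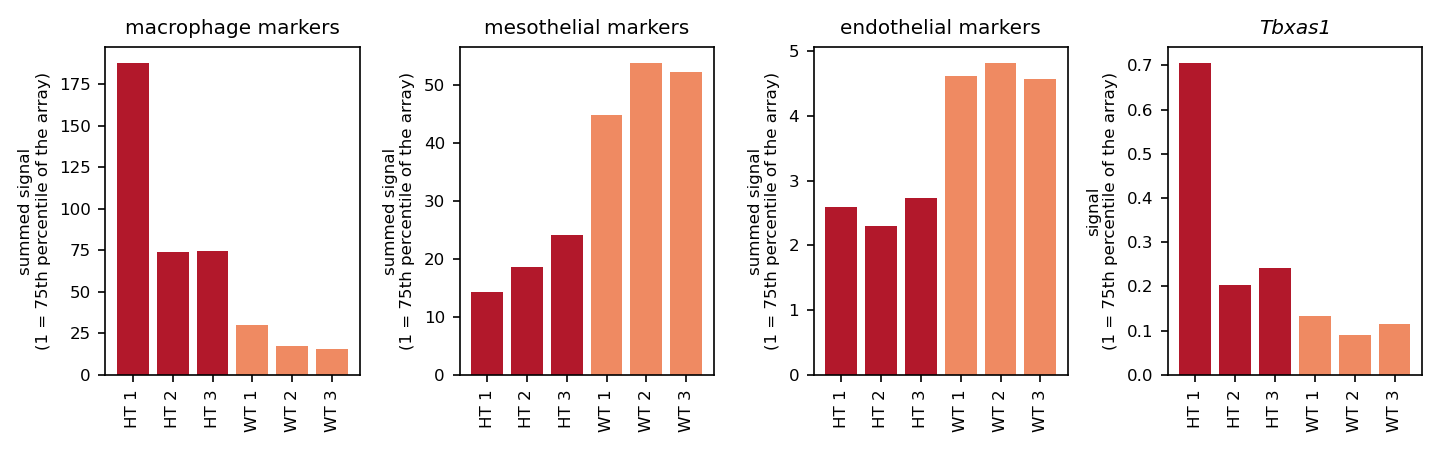
Summed signal of the macrophage, mesothelial and endothelial markers and the signal of Tbxas1 (y axes, in multiples of the array's 75th percentile) on the 6 PSC arrays (bars, no replicates within a bar). PSC HT 1 was highest both in macrophage markers, at 188, and in Tbxas1, while mesothelial and endothelial markers were higher on the PSC WT arrays.

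Ptgds encodes lipocalin-type prostaglandin D synthase, a secreted protein that also carries lipophilic molecules. In PSC it was at -6.07, -5.36 and -3.41 in PSC HT, the first of which was not well above background, and at -4.89, -4.65 and -4.45 in PSC WT. It was high in cancer cells, at 3.39, 2.96 and 3.29 in HT medium, 3.42, 3.34 and 3.47 in WT medium, and 3.28, 3.08 and 3.01 in control medium. PSC WT differed from the control cancer cells by -7.79 ± 0.14 (adjusted p = 3.7e-08), a 221-fold lower signal. In WT medium each array exceeded each control, and the difference of 0.28 ± 0.12 did not pass (adjusted p = 0.229). In HT medium the arrays overlapped the controls and the difference was 0.09 ± 0.12 (adjusted p = 0.763). Between the PSC genotypes the difference was -0.28 ± 0.64 (adjusted p = 0.862). Its highest PSC array was PSC HT 3, the array with Cdh1 signal and with the highest summed epithelial markers, 23.4 against 6.42 and 7.16 on the other PSC HT arrays and 13.9 to 14.8 in PSC WT. Without that array the difference was -1.05 (adjusted p = 0.0779). The part of these epithelial transcripts in the Ptgds level was not tested.

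Hpgd encodes 15-hydroxyprostaglandin dehydrogenase, which inactivates prostaglandin E2 after uptake. It was dim throughout. In PSC it was well above background on PSC HT 1 only, at -5.02. Cancer cells had -5.08, -5.16 and -5.25 in HT medium, -4.69, -5.20 and -5.07 in WT medium, and -4.94, -5.21 and -5.01 in control medium. These groups overlapped, and the differences of -0.11 ± 0.13 in HT medium (adjusted p = 0.726) and 0.07 ± 0.13 in WT medium (adjusted p = 0.813) did not pass. PSC WT was at least 1.59-fold lower than the control cancer cells (adjusted p = 0.0036), a call that did not hold with normexp background correction.

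Between the PSC media, HT minus WT, the differences ran from -0.20 ± 0.12 for Ptgds to 0.13 ± 0.17 for Tbxas1 among 7 of the 8 tested genes. The other one, Pla2g10, was well above background on only 1 of these 6 arrays, so no size is given for it. The groups of every one of the 8 overlapped. The median difference over the 8 was -0.01, beside 0.00 over all genes. Markers of the PSC cultures were measured in the same cancer arrays. Of the 15 macrophage markers Cd68, Csf1r, Cd14, C1qb, Fcer1g and Mrc1 were well above background on all 9 cancer arrays, controls included, while Lyz2, Adgre1 and 5 others were so on none. Of the 6 that were tested Cd68 and Mrc1 rose, by 0.55 ± 0.08 and 0.69 ± 0.08 in HT medium (adjusted p = 0.0066 and 0.0023) and by 0.52 ± 0.08 and 0.52 ± 0.08 in WT medium (adjusted p = 0.0077 and 0.0059). The summed macrophage marker signal was 15.8 to 17.7 in HT medium and 15.1 to 17.1 in WT medium, against 14.9 to 15.7 in control medium. Of the 12 stellate and fibroblast markers Acta2, Col1a1 and Vim were well above background on all 9 arrays and did not pass in either medium, and Col3a1, Dcn, Lum, Pdgfra, Pdgfrb and Des were so on none. The summed stellate marker signal was 93.4 to 104.1 in HT medium and 90.8 to 98.5 in WT medium, against 87.5 to 92.6 in control medium. The part of these markers in the differences between media was not tested.

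A further 67 genes on the array belong to the same lipid pathways, in lists of other phospholipases, other prostanoid synthases and transporters, prostanoid receptors and leukotriene genes. In cancer cells 35 of them were tested. In each PSC medium 0 rose and 5 fell, where 2.97% and 2.5% of all genes rose and fell in HT medium and 2.8% and 3.15% in WT medium. Slco2a1, the transporter that takes prostaglandins into the cell ahead of their breakdown, was at 2.84, 2.83 and 2.79 in HT medium and 2.77, 2.70 and 2.70 in WT medium, against 3.71, 3.60 and 3.64 in control medium. It fell by 0.83 ± 0.06 in HT medium (adjusted p = 0.00031) and by 0.92 ± 0.06 in WT medium (adjusted p = 0.00012), with the arrays clearly apart. Ptger4, the prostaglandin E2 receptor EP4, fell by 0.47 ± 0.07 in HT medium and by 0.53 ± 0.07 in WT medium (adjusted p = 0.0103 and 0.0046). Its level was -1.18, -1.02 and -0.96 in HT medium and -1.09, -1.14 and -1.11 in WT medium, against -0.54, -0.67 and -0.55 in control medium. Cbr1, a carbonyl reductase that acts on prostaglandin E2, fell by 0.39 ± 0.07 and by 0.47 ± 0.07. Pparg, the nuclear receptor that binds fatty acid and prostaglandin J derivatives, fell by 0.48 ± 0.08 and by 0.71 ± 0.08. The secreted phospholipase-like gene Pla2g12b fell by 0.36 ± 0.08 and by 0.41 ± 0.08, calls that most other settings did not keep. The Ptger4 calls did not hold when all its probes were averaged. In HT medium the call of Cbr1 was lost without HT medium 2 or 3 or control 2, and that of Pparg without HT medium 3 (adjusted p of 0.053 to 0.069). Between the media 0 of the 35 passed with limma, and 2 had an unadjusted p under 0.05.

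Between PSC HT and PSC WT 46 of these genes were tested, and 3 rose and 1 fell, where 2.95% and 4.78% of all genes rose and fell. Mgll, monoacylglycerol lipase, which yields arachidonic acid from an endocannabinoid, was at 1.25, 1.20 and 1.27 in PSC HT and 2.81, 2.65 and 2.62 in PSC WT. It fell by 1.46 ± 0.08 (adjusted p = 0.00085). Both genes of the leukotriene entry step were higher in PSC HT. Alox5ap, the 5-lipoxygenase activating protein, was at 1.39, -0.14 and 0.16 in PSC HT and -1.54, -2.24 and -2.09 in PSC WT, a rise of 2.43 ± 0.41 (adjusted p = 0.0207). Alox5, 5-lipoxygenase itself, was higher too (adjusted p = 0.0308). Its size is not given, because 3 of 3 PSC HT but only 1 of 3 PSC WT arrays were well above background. Alox5 was thus tested only through the PSC HT arrays, so its direction was largely set by the filter. Like Tbxas1, Alox5ap and Alox5 were highest on PSC HT 1, the array with the highest macrophage markers. The part of those markers was not tested. Alox5 did not pass without PSC HT 1 or 3 or PSC WT 2 or 3, nor Alox5ap without PSC WT 2 or 3 (adjusted p of 0.085 to 0.115). Tbxa2r, the thromboxane receptor, rose by 0.42 ± 0.09 (adjusted p = 0.0377), a call lost when any 1 of 5 of the 6 arrays was left out.

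Between PSC WT and the control cancer cells 47 of these genes were tested, and 20 were higher and 16 lower, where 36.1% and 35.2% of all genes were. Of 8 tested receptors 5 were higher and 2 lower. The prostacyclin receptor Ptgir was at least 27.3-fold higher in PSC WT, and the prostaglandin E2 receptors Ptger3 and Ptger1 at least 6.2-fold and 5.01-fold, none of them well above background in control cancer cells. Ptger4 was higher by 1.29 ± 0.08. Tbxa2r was higher too (adjusted p = 0.0014), with 1 of 3 control arrays well above background, so its size is not given. The lower ones were the nuclear receptors Pparg, with a difference of -1.99 ± 0.15, and Ppard, with -0.76 ± 0.12. Mgll was at least 304-fold higher, and the lysosomal phospholipase Pla2g15 was higher by 1.84 ± 0.08. Ptgs2os2, a transcript antisense to the Ptgs2 region, was at least 4.82-fold higher. Whether the array told its strand apart was not examined. Prxl2b, a prostamide and prostaglandin F synthase, was higher by 1.06 ± 0.12. Slco2a1 was lower in PSC WT by 1.29 ± 0.10 on the log2 scale and Abcc4, an exporter of prostaglandins, had a difference of -2.92 ± 0.09. Faah, which degrades fatty acid amides, had a difference of -3.14 ± 0.10, and Pla2g12b was at least 8.83-fold lower. Of the leukotriene genes, Cysltr1, a cysteinyl leukotriene receptor, was higher (adjusted p = 0.0018), and its size is not given because only 1 of 3 control arrays was well above background. Ltb4r1, a leukotriene B4 receptor, was higher by 2.05 ± 0.22, with 2 of 3 control arrays well above background. Ltc4s, leukotriene C4 synthase, was higher by 0.87 ± 0.11, while Lta4h, leukotriene A4 hydrolase, differed by -0.56 ± 0.09. Ptgir, Ptger3, Ptger1, Tbxa2r, Mgll, Ptgs2os2, Cysltr1 and Ltb4r1 entered this test only through the PSC WT arrays, and Pla2g12b only through the control arrays. The directions of those genes, and their part in the counts above, were thus largely set by the filter.

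The genes whose levels followed each of the 9 most closely over the 15 arrays were taken by Pearson's r among 14829 genes. All arrays share the gap between PSC and cancer cells, so these correlations are a description only. Btg2, Flrt2 and Cyp1b1 were nearest to Ptgs1 (r of 0.996 to 0.997), Slc39a13, Lrp11 and Zfp518b to Ptgs2 (0.994) and Ifi47, Mn1 and Cnrip1 to Ptgis (0.998 to 0.999). Dhh, Slc39a4 and Cdh13 were nearest to Ptgds (0.999), Brwd1, Ufsp2 and Sgcb to Pla2g4a (0.986 to 0.988) and Snhg1, Tmx2 and Ebp to Ptges (0.985 to 0.987). Tbxas1 was followed by Stab1, Arhgap30 and Sirpb1b (0.979 to 0.98), 3 genes of which Stab1 encodes a scavenger receptor of macrophages. Hpgd was followed by Ptpn6, Cd44 and Snx15 (0.942 to 0.957). The dim Pla2g10 had looser neighbours, the epithelial genes Adh7, Spdef and Dmkn (0.836 to 0.877).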

How the data were processed

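RNA of 15 samples was measured on 1-colour (Cy3) arrays. Per the file headers, the deposited intensity of a spot was extracted with Feature Extraction 10.7.3.1, background subtracted and detrended within the array, and not scaled between arrays. The deposited series matrix holds log2 values of the same arrays, whose preparation by the authors is not given in the sources used here, and was used within a cell type, as an alternative. The positions in the files are of build mm9, and exon annotation of that build was not used here.

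Levels are log2 intensities minus the 75th percentile of their own array (913.4 to 1449 in signal units), with control spots and spots marked as outliers left out and spots of a probe averaged. The probe with the highest mean over the 15 arrays stood for its gene, and other probes were tested in its place as alternatives. Fits used R 4.3.3 with limma 3.58.1 and the package data.table (version 1.17.8), in 1 fit for PSC, 1 for cancer cells and 1 for PSC WT against control cancer cells, with Benjamini-Hochberg adjustment over all genes tested and a threshold of 0.05. Where no array of a group was well above background, "at least N-fold" uses the higher of each array's detection floor and its reading. The number of arrays limits the precision. Every one of the 9 genes is named, with up to 4 genes past the threshold of each other list by smallest adjusted p, the 3 genes nearest by correlation, and defining markers. The 9 genes and the lists were chosen with earlier results of these data known. The procedure was tested on simulated data. Figures and sequences used matplotlib 3.10.9, pandas 2.3.3 and numpy 2.4.6 in Python 3.11.15. Promoter windows are RefSeq's on GRCm38.p6. RefSeq held a window for 8 of the 9 genes.

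Replicate numbers are shared between groups. Deviations of same-numbered samples from their group means correlated at 0.206, 0.252 and 0.221 between WT medium and control, all over 0.1, the limit used here. The numbers were therefore taken as a possible pairing of those samples, used only in the replicate block below. All other fits were unpaired. Samples with other numbers correlated as highly there, at up to 0.222, 0.224 and 0.210, and replicate 1 correlated best with another number, so the pairing is weak.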

Additional observations from a re-analysis of the deposited data

How the results depend on the processing

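The alternatives for the other pathway genes were chosen after seeing the data. Of the 9 genes, those past the threshold between PSC HT and PSC WT numbered 1, and 2 with quantile scaling, slide block, trend and robust variance, all 15 arrays in 1 fit or the authors' matrix values, 3 with the mean of all probes and 0 with no filter on dim probes, on slide 1 alone or on slide 2 alone, where limma's unadjusted p was under 0.05 for 3, 2 and 4. In WT medium against control 4 became 2 with no filter, 1 with the mean of all probes and 0 on either slide alone, and in HT medium against control 4 became 1, 1 and 0, with 4 at an unadjusted p under 0.05 on each slide. Without 1 replicate the counts were 1 to 2 in PSC, 3 to 4 in WT medium, 1 to 3 in HT medium, 0 between the media and 9 between cell types.

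Of the other pathway genes, 4 in PSC became 1 with no filter, 0 on slide 1 alone (8 unadjusted) and 7 with trend and robust variance, and 1 to 4 without 1 replicate. Their 5 in WT medium became 0 on either slide (6 unadjusted), and 4 to 6 without 1 replicate. Their 5 in HT medium became 1 with no filter, 2 with the mean of all probes, 3 with all 15 arrays, 0 on either slide (6 unadjusted), and 2 to 5 without 1 replicate. Between cell types 36 became 35 to 37. Genes called in all, 1615, 1172 and 1077 in PSC, WT medium and HT medium, were 401, 467 and 334 with no filter, which tests 37008 names, 1178, 770 and 674 with the mean of all probes, and 0 to 627 within 1 slide, where a lone array is taken to have the spread of the other groups. In PSC all 15 arrays in 1 fit gave 2459. Between cell types the median of all genes was 0.04, and 0.12 with median scaling and -0.12 with no filter.

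With the replicate block the counts were 1 in PSC, 4 in WT medium and 3 in HT medium. They were 0 between the media and 9 between cell types. In WT medium the numbers were taken as a possible pairing, and in HT medium Pla2g10 had an adjusted p of 0.0505. In the other comparisons the samples share only a number. In all 5 comparisons, WT medium included, not every sample correlated best with its own.

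Signs that turned were all of differences that had not passed, except Pla2g4a in HT medium on its dim probe 2 (-0.13). In PSC, Ptgds was 0.046 with normexp, 0.151 on slide 1 and 0.019 in the matrix, and -1.05 to 0.279 without 1 replicate, and Ptges was -0.00189 in the matrix. In HT medium against control, Hpgd was 0.04999, Ptgds -0.122 and Tbxas1 -0.403 on slide 2, and Ptges 0.14 with the mean of probes, 0.028 on slide 1, 0.275 on probe 2 and 0.159 on probe 3. Without 1 replicate Ptges was -0.0804 to 0.0415 and Tbxas1 -0.0806 to 0.225. In WT medium against control, Tbxas1 was 0.144 on slide 1, and Ptges 0.00404 with normexp, 0.0133 with median scaling, 0.0729 with the mean of probes, 0.0677 on slide 1, 0.165 on probe 2 and 0.0548 on probe 3. Without 1 replicate Ptges was -0.0671 to 0.0548 and Hpgd -0.0818 to 0.173. Between HT and WT medium, Ptgs1 was 0.0298 with normexp, 0.0919 with the mean of probes, 0.0469 on slide 1 and 0.0312 in the matrix, and -0.0462 to 0.0443 without 1 replicate. There Ptges was 0.00093 with quantile scaling, 0.0673 with the mean of probes, 0.00757 with the slide block, 0.0202 on slide 2, 0.00867 in the matrix, 0.111 on probe 2 and 0.105 on probe 3, and -0.0278 to 0.00509 without 1 replicate. Pla2g4a was 0.0363 on slide 1 and -0.0604 to 0.0191 without 1 replicate, Ptgs2 -0.0621 to 0.119 without 1 replicate, and Tbxas1 -0.142 on slide 2. The cause of these changes was not tested.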
